A study of Rattus norvegicus with 6 samples.

Results

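UDP-glucuronosyltransferases (Ugt genes) and sulfotransferases (Sult genes) were examined in rat liver after dosing with nitrilotriacetic acid (NTA) or with vehicle. The members were the genes with at least 1 non-control probe whose RefSeq accession carries a rat symbol that begins with Ugt or Sult and a digit. The rule found 27 genes, 14 Ugt and 13 Sult, among 15284 named genes with a probe, and they held 45 probes. Of the 27 genes, 20 were measured, meaning that a probe exceeded background, by the scanner software's own flag, on each of the 3 NTA arrays, each of the 3 vehicle arrays or both. A further 17 entries of the RefSeq table fit the same symbols but had no named probe and were not analysed here. Of these, 10 are protein coding: Sult1c2al1, Sult5a1, Sult6b2, Ugt1a3, Ugt1a5, Ugt1a7c, Ugt1a8, Ugt2b34l1, Ugt2b7l1 and Ugt3a1.

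The dosed animals were 3 rats that received nitrilotriacetic acid trisodium monohydrate, a metal chelator, at 1000 mg/kg/day, and they were compared with 3 vehicle rats. All 6 were male Sprague-Dawley rats of the Crl:CD(SD) stock, 5 weeks old at purchase and kept on the same basal diet. The labels name the vehicle in different ways, as purified water in 1 field and as corn oil in another. They also give the dosing as 28 days in the series design and as 9 weeks in the protocol, so neither the vehicle nor the duration is settled. Total RNA of whole liver was labelled with Cy3 and hybridised to 1 Agilent array per rat. The p-values therefore measure the spread between these 6 animals and their arrays.

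Both enzyme families attach a polar group to a small molecule, so that it can leave the cell in bile or blood. UDP-glucuronosyltransferases sit in the membrane of the endoplasmic reticulum and transfer glucuronic acid from UDP-glucuronate. Sulfotransferases are cytosolic and transfer a sulfate group from 3'-phosphoadenosine 5'-phosphosulfate (PAPS). The Ugt1a transcripts each begin with a first exon of their own and share the remaining exons, whereas Ugt2 and Sult transcripts come from separate genes that often lie in clusters. In liver the substrates include bilirubin, steroid and thyroid hormones, bile acids, phenols and drugs.

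All values below are log2 processed signals relative to the 75th percentile of the same array, and a difference is the mean of NTA rats minus the mean of vehicle rats. Each gene is represented by its brightest probe, and probes differ in response, so levels are compared between arrays and never between genes. An array had 61657 probes, of which the software flagged 62.4% to 64.5% as well above background. The 75th percentile of processed signal ran from 464 to 558. All 3 NTA arrays came from slide 2, vehicle replicates 1 and 2 from slide 1, and vehicle replicate 3 from slide 3, which was scanned on another day. Slide and treatment therefore cannot be told apart. All 6 hepatocyte markers were above background on every array, and their summed signal was 2805 to 2988 in NTA rats and 3029 to 3400 in vehicle rats, relative to the 75th percentile. The erythroid marker sum was 708 to 1117 in NTA rats and 577 to 640 in vehicle rats, over 4 of 5 listed genes, all 4 above background on every array. The sum for endothelium was 58.3 to 63.1 in NTA rats and 46.4 to 56.2 in vehicle rats, over 3 of 5 listed genes, and for stellate cells and fibroblasts it was 11.8 to 15.8 in NTA rats and 10.5 to 11.4 in vehicle rats, over 5 of 5. The Kupffer cell sum overlapped, at 108 to 217 in NTA rats and 68.7 to 160 in vehicle rats, over 6 of 6. The adipocyte sum was 0.200 to 0.334 in NTA rats and 0.0451 to 0.0681 in vehicle rats, with Adipoq and Lep above background on no array. The median difference of its 3 probed genes was −0.29, opposite to the sum, and 1 of them was above background on every array. The intestine sum was 1.34 to 1.71 in NTA rats and 2.10 to 2.94 in vehicle rats, with Vil1 above background on no array. The median difference of the intestine genes was 0.04, so it did not follow the lower sum. The sums of the cholangiocyte, lymphocyte, pancreas and kidney lists overlapped between the groups. The part of these marker differences in the results was not tested, and in bulk liver fewer cells of a type and less RNA per cell cannot be told apart.

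No Ugt or Sult gene passed the test. In limma's moderated test with Benjamini-Hochberg adjustment over 30350 features, 0 of the 20 measured members had an adjusted p under 0.05, against 9 of all features (0.0297%). The adjusted p of the members was between 0.671 and 0.995. None of the 20 reached an unadjusted p under 0.05 either, against 2301 of all features (7.58%, of which 3.66% were higher and 3.92% lower with NTA). The lowest unadjusted p was 0.0555, for Ugt2b1. That count of 0 rested on single arrays. In limma without vehicle replicate 3, 4 members had an unadjusted p under 0.05 (Ugt1a2, Ugt1a6, Sult1e1 and Sult2a1), against 2401 of all features, and without vehicle replicate 2 there were 3 (Ugt2b1, Ugt2b10 and Sult1c2), against 2051 of all features. Without NTA replicate 3 there were 2, against 2059 of all features, and without NTA replicate 2 there was 1, against 1937 of all features. On the brightest probe of 1 member, Ugt1a2, the NTA and vehicle arrays did not overlap, against 13.6% of all features without overlap, 5.57% with higher and 8.04% with lower values in NTA rats. The median difference over the 20 members was −0.08, with 7 above 0 and 13 below, and over all features it was −0.03, with 43.8% above 0. The 95% interval lay within a 2-fold change either way for 11 of the 20 members, and for the other 9 it reached past 2-fold.

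**Figure D1:**
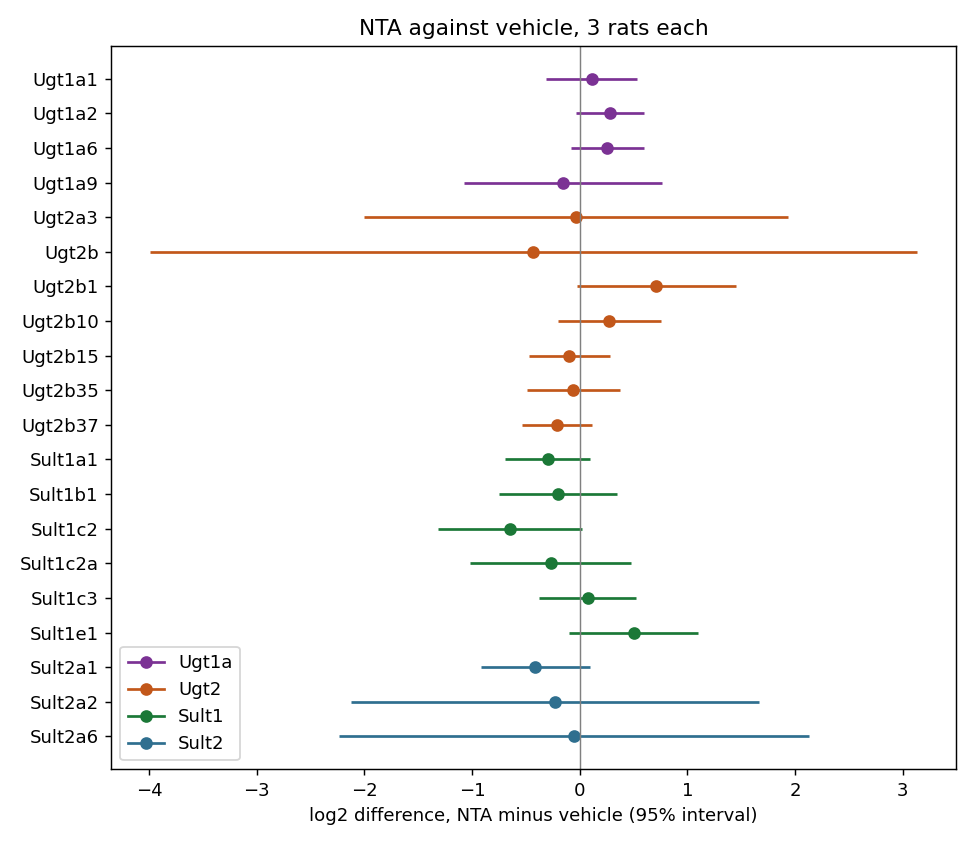
Difference between NTA and vehicle rats (log2, horizontal axis) for each measured Ugt and Sult gene, with points for the estimate and lines for the 95% interval of limma's moderated test, n = 3 rats each, coloured by family. All 20 intervals include 0. The intervals of Ugt2b, Ugt2a3, Sult2a2 and Sult2a6 are the 4 widest.

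All 4 Ugt1a genes with a probe were measured. Their median difference was 0.18, with 3 of 4 above 0, and none passed the test. In the RefSeq table all 8 protein-coding Ugt1a genes share 1 annotated end, and the files give no probe positions. A probe may therefore read 1 Ugt1a transcript or several. The start regions are shown for Ugt1a2, whose groups did not overlap on its brightest probe, and for Ugt1a6, which in rats is a known target of the aryl hydrocarbon receptor (AHR). Each window runs from 250 bases before to 50 after the annotated start in RefSeq's rat assembly GRCr8, with 5' to 3' in the direction of the gene. Capitals mark 2 motifs, the half-site GTTAAT of HNF1, a hepatocyte transcription factor, and the xenobiotic response core TGCGTG, which the activated aryl hydrocarbon receptor binds. Both were searched on both strands, so the half-site can appear as ATTAAC.

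Ugt1a2: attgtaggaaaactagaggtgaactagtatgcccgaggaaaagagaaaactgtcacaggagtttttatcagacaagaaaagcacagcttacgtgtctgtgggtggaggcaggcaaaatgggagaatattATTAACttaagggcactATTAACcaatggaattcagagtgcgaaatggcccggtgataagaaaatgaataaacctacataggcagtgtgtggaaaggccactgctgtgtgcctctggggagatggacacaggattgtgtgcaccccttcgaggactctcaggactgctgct
Ugt1a6: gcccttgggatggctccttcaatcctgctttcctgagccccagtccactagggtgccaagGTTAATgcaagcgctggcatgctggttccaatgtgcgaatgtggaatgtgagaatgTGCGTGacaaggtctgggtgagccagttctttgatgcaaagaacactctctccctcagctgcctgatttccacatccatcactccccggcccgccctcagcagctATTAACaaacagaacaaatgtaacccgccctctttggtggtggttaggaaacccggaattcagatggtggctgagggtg

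The Ugt1a2 window lies at chr9:96238769-96239068 and the Ugt1a6 window at chr9:96194768-96195067, both on the + strand. Ugt1a2 holds half-sites at positions −121 and −104 relative to the start. Ugt1a6 holds half-sites at −190 and −29 and the xenobiotic response core at −134, and no 2 of these matches overlap. Over all members, 34 of the 44 table entries have a window, 35 windows in all, and every one of the 20 measured genes has one. The half-site occurs in 9 of these 35 windows, those of Sult1c2al1, Sult2a2, Sult2a6, Ugt1a1, Ugt1a2, Ugt1a3, Ugt1a6, Ugt2a3 and Ugt2b10, and in 7.45% of the 33469 windows of the table. The xenobiotic response core occurs in 4 member windows, of Sult2b1, Ugt1a6 and Ugt2b34l1, and in 8.09% of all windows. The antioxidant response core TGACNNNGC, searched in the same way, occurs in 0 member windows and in 12.1% of all windows. A match is a string of letters in this window and not a measured binding site.

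Ugt1a6, which conjugates planar phenols, had 7.80, 7.80 and 7.71 in NTA rats, against 7.42, 7.34 and 7.77 in vehicle rats. Its 3 NTA arrays lay close together, and vehicle replicate 3 fell among them, so the groups overlapped on this probe. The difference was 0.26 ± 0.14 (SE, n = 3 each, 95% interval −0.08 to 0.59, adjusted p = 0.729 in limma), and the other 2 Ugt1a6 probes gave 0.31 and 0.65. The groups did not overlap on either of these: A_64_P025630 had 5.82, 5.77 and 5.78 in NTA rats, against 5.66, 5.21 and 5.59 in vehicle rats, and A_44_P432358 had −0.14, 0.25 and −0.11 in NTA rats, against −0.28, −1.14 and −0.55 in vehicle rats. The unadjusted p in limma was 0.0712 for A_64_P025630 and 0.0313 for A_44_P432358. Ugt1a2 had 5.87, 5.87 and 5.81 in NTA rats, against 5.64, 5.33 and 5.73 in vehicle rats. On this probe every NTA array was above every vehicle array. The difference of Ugt1a2 was 0.28 ± 0.13, a 1.22-fold higher signal (SE, n = 3 each, 95% interval −0.03 to 0.60, adjusted p = 0.687 in limma), and it was 0.24 on the second probe, where NTA replicate 3 (4.67) lay below vehicle replicate 3 (4.70).

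Ugt1a1, the main bilirubin-conjugating enzyme, had 3.27, 3.19 and 3.25 in NTA rats, against 3.24, 2.75 and 3.38 in vehicle rats. Vehicle replicate 2 was low and the other 5 arrays lay together. The difference was 0.11 ± 0.18 (SE, 95% interval −0.31 to 0.53, adjusted p = 0.908 in limma). Ugt1a9 had −1.77, −1.01 and −2.06 in NTA rats, against −1.16, −1.04 and −2.17 in vehicle rats. High and low arrays occurred in both groups. The difference was −0.15 ± 0.38 (SE, adjusted p = 0.949 in limma), and the within-group SD of 0.58 exceeded that of 94.5% of all features. In 3 of the 4 genes, Ugt1a1, Ugt1a2 and Ugt1a6, vehicle replicate 2 was the lowest of the 6 arrays.

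**Figure D2:**
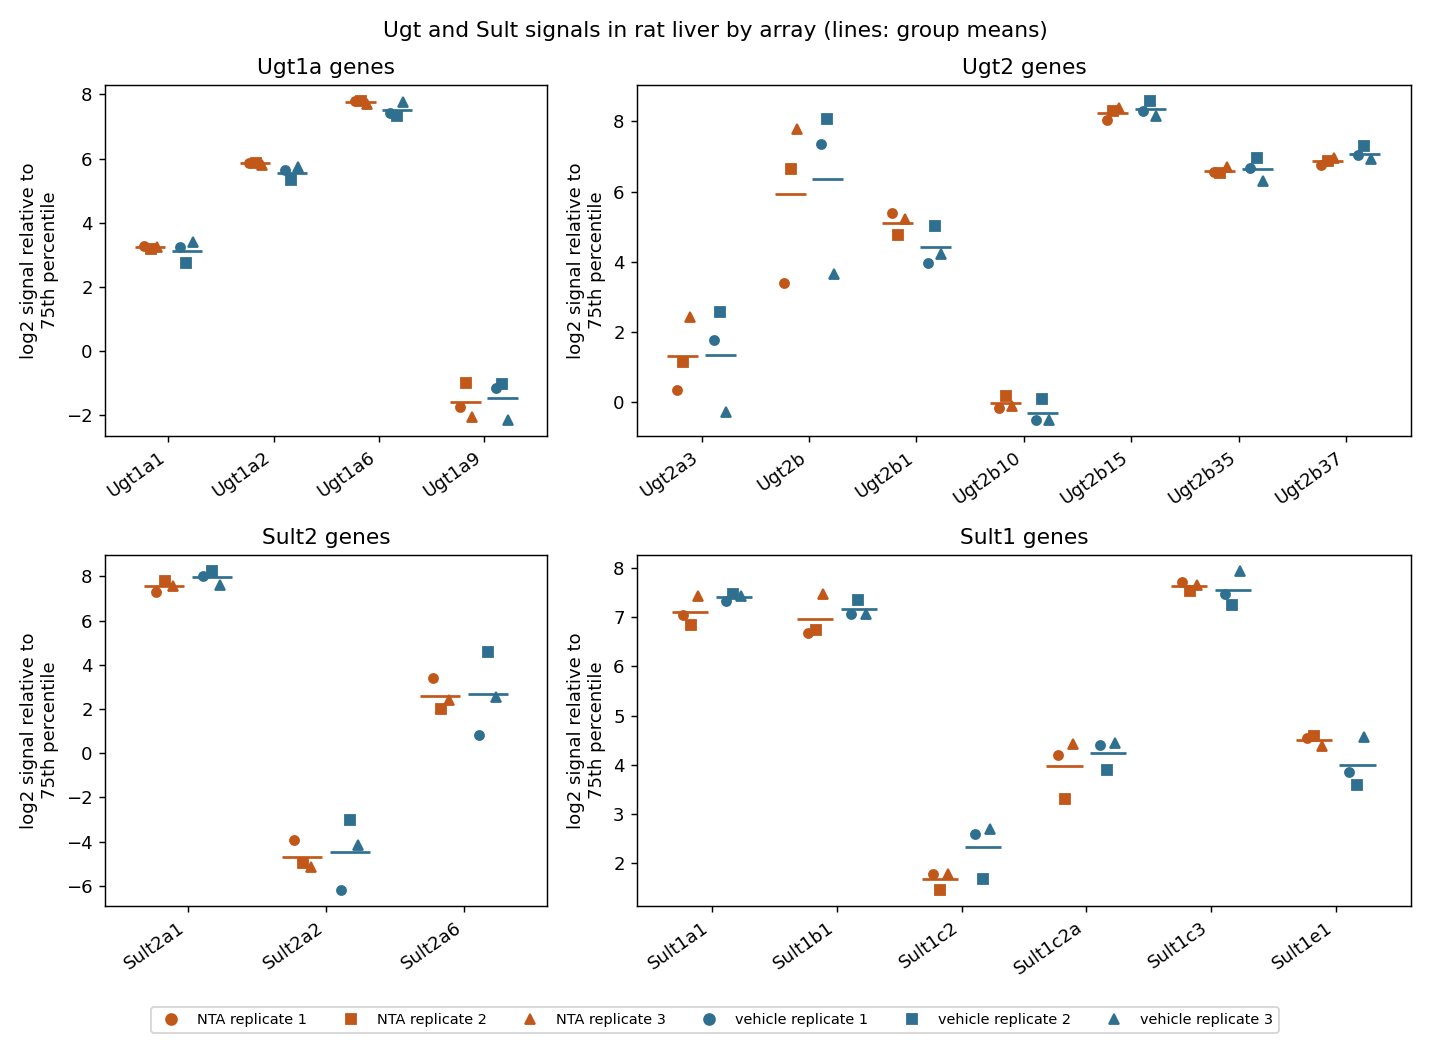
Signal of each measured Ugt and Sult gene on each array (log2 relative to the 75th percentile, vertical axis), with NTA rats left of vehicle rats, marker shapes for replicates 1 to 3 and lines for the group means. With the brightest probes drawn here, Ugt1a2 is the member with no overlap between NTA and vehicle arrays, and Ugt2b spans 4.68 log2 units over the 6 arrays.

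Of 9 Ugt2 genes with a probe, 7 were measured. None passed the test, 2 of the 7 differences were above 0, and their median was −0.06. The genes lie on chromosome 14 in the RefSeq table, where Ugt2a3 and Ugt2b are neighbours among the Ugt and Sult entries. The start regions of these neighbours are shown because they were the Ugt2 members that varied most between arrays. Capitals mark the HNF1 half-site.

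Ugt2a3: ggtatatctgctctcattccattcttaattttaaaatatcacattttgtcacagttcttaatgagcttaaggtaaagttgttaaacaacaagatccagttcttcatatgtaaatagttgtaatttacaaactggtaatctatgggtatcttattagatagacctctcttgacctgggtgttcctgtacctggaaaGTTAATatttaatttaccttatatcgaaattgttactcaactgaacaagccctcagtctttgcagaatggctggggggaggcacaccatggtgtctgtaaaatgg
Ugt2b: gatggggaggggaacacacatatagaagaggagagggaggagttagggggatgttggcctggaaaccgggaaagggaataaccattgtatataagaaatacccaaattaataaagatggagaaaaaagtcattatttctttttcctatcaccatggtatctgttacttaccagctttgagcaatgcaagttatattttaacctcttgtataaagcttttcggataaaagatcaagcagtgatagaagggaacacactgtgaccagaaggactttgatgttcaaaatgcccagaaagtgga

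The windows lie at chr14:20851720-20852019 for Ugt2a3 and chr14:20985199-20985498 for Ugt2b, both on the + strand of GRCr8. Ugt2a3 holds 1 half-site at −55, and Ugt2b holds none of the 3 motifs. The Ugt2b window shares 65.2% of aligned positions with that of Ugt2b15 and 46.4% with that of Ugt2a3.

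Ugt2b, listed also as Ugt2b2 and known for conjugating androsterone, an activity that is high in some Wistar rats and low in others, separated the 6 rats into 4 with a high signal and 2 with a low one, and the split did not follow treatment. Its brightest probe, A_44_P426047, had 3.40, 6.64 and 7.77 in NTA rats, against 7.37, 8.08 and 3.65 in vehicle rats. NTA replicate 1 and vehicle replicate 3 were the low arrays. The difference between the groups was −0.43 ± 1.49 (SE, n = 3 each, 95% interval −3.99 to 3.13, adjusted p = 0.963 in limma). Without NTA replicate 1 the difference was 0.84 and without vehicle replicate 3 it was −1.79, so its sign rested on single arrays.

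The same 2 arrays were low on both other Ugt2b probes. Probe A_64_P117003 had processed signals of 122, 49041 and 120203 in NTA rats, against 81356, 117772 and 266 in vehicle rats. That is a range of 1091-fold, with a gap of 188-fold between the low pair and the next array. Among the 38158 probes that passed the filter, this probe had both the widest range over the 6 arrays and the widest gap between neighbouring arrays. Probe A_44_P437096 had −7.28, 1.52 and 2.63 in NTA rats, against 1.90, 3.06 and −7.21 in vehicle rats, and it was not well above background on NTA replicate 1 and vehicle replicate 3. On A_44_P426047 the range was smaller, at 25.6-fold, and both low arrays stayed well above background. The files give no probe sequences, so what each probe pairs with was not tested. NTA replicate 1 shared its slide and scan day with the other 2 NTA arrays, whose signals were high, while no other array shared the slide or the scan day of vehicle replicate 3. The part of slide and scan day in the split was not tested.

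Ugt2a3 had 0.34, 1.15 and 2.43 in NTA rats, against 1.75, 2.57 and −0.28 in vehicle rats. The 2 lowest arrays were again vehicle replicate 3 and NTA replicate 1, and vehicle replicate 2 was again highest, but the values were graded, with gaps of at most 0.81 between neighbouring arrays on this probe. The difference was −0.04 ± 0.82 (SE, 95% interval −2.01 to 1.93, adjusted p = 0.995 in limma). A second Ugt2a3 probe had −1.66, −1.28 and 0.21 in NTA rats, against −0.02, 0.82 and −2.13 in vehicle rats, in the same order of arrays and with gaps of at most 1.26. The within-group SD was 2.32 for Ugt2b and 1.28 for Ugt2a3, above 99.9% and 99.4% of all features.

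**Figure D3:**
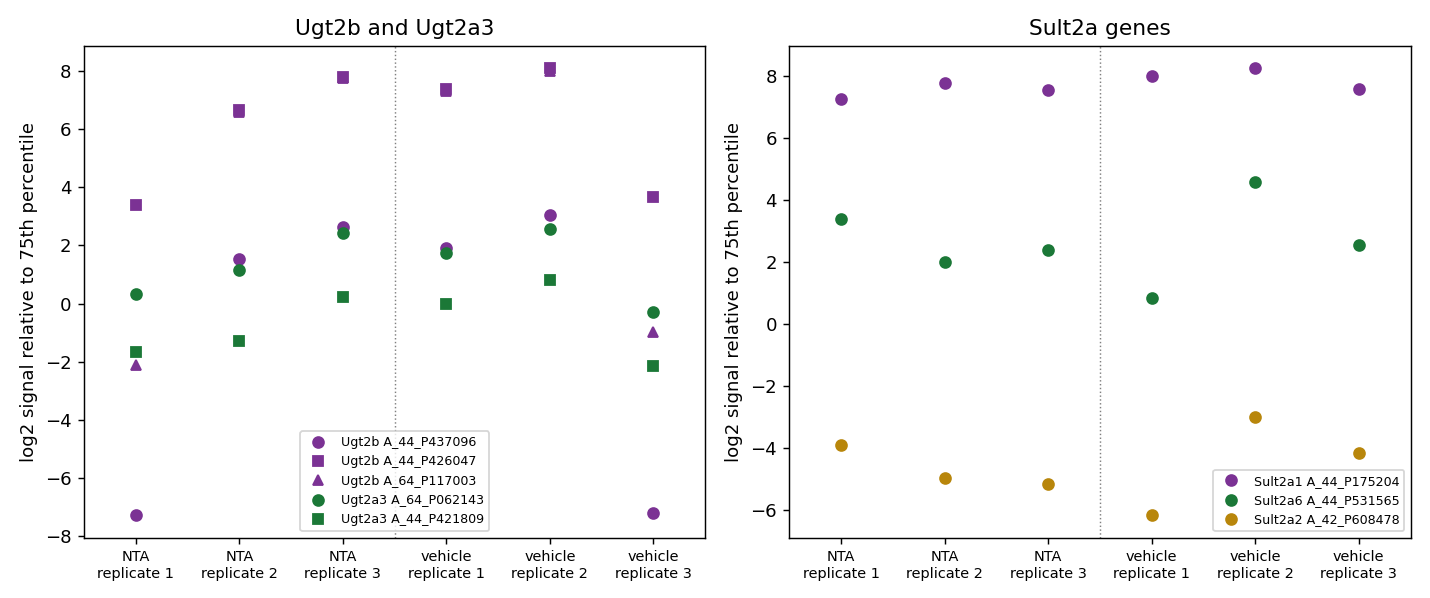
Signal on each array (log2 relative to the 75th percentile) of all probes of Ugt2b and Ugt2a3 (left) and of the 3 measured Sult2a genes (right), with the 3 NTA rats left of the dotted line and the 3 vehicle rats right of it. All 3 Ugt2b probes are low on NTA replicate 1 and vehicle replicate 3, where A_64_P117003 lies at −2.10 and −0.99. On the other 4 arrays its triangles sit close to the squares of A_44_P426047.

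The other 5 measured genes named Ugt2b spanned only 1.45- to 2.70-fold over the 6 arrays. Ugt2b1, which in rats conjugates testosterone and morphine and responds to phenobarbital, had 5.39, 4.75 and 5.21 in NTA rats, against 3.96, 5.03 and 4.22 in vehicle rats. The 2 lowest arrays were vehicle arrays, and vehicle replicate 2 lay among the NTA arrays. At 0.71 ± 0.31 (SE, n = 3 each, 95% interval −0.02 to 1.45) this was the highest difference among the 20 members, a 1.64-fold higher signal, and it did not pass the test (adjusted p = 0.671 in limma). It was between 0.49 and 1.03 when each array was left out in turn.

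Ugt2b15 had 8.05, 8.29 and 8.39 in NTA rats, against 8.28, 8.58 and 8.15 in vehicle rats. NTA replicate 1 and vehicle replicate 3 were its lowest arrays too, within a 1.45-fold range. The groups overlapped, with a difference of −0.10 ± 0.16 (SE) and −0.04 on a second probe. Ugt2b37 had 6.76, 6.88 and 6.97 in NTA rats, against 7.03, 7.29 and 6.92 in vehicle rats. Here only NTA replicate 3 reached into the vehicle range, and the difference was −0.21 ± 0.13 (SE, adjusted p = 0.764 in limma). Ugt2b35 had 6.55, 6.52 and 6.69 in NTA rats, against 6.67, 6.97 and 6.30 in vehicle rats, a difference of −0.06 ± 0.18 (SE). The 95% intervals of Ugt2b15, Ugt2b35 and Ugt2b37 ran from −0.53 at the lowest to 0.38 at the highest. Ugt2b15 and Ugt2b37 share 85.3% of aligned positions in their start windows, and whether their probes take up each other's RNA was not tested. Ugt2b10 had −0.17, 0.15 and −0.11 in NTA rats, against −0.51, 0.10 and −0.53 in vehicle rats, a difference of 0.27 ± 0.20 (SE, adjusted p = 0.797 in limma). In both groups replicate 2 was its highest array.

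Of 7 Sult1 genes with a probe, 6 were measured. None passed the test, 2 of the 6 differences were above 0, and their median was −0.23. That median was −0.01 without NTA replicate 2 and −0.46 without NTA replicate 3. Sult1a1, the main phenol sulfotransferase, had 7.03, 6.85 and 7.42 in NTA rats, against 7.32, 7.47 and 7.42 in vehicle rats. The vehicle arrays lay close together, and 2 of the 3 NTA arrays were below all of them. The difference was −0.30 ± 0.16 (SE, n = 3 each, 95% interval −0.69 to 0.10, adjusted p = 0.734 in limma), and a second probe gave −0.19. Sult1b1, which sulfates thyroid hormones, had 6.68, 6.74 and 7.47 in NTA rats, against 7.07, 7.35 and 7.07 in vehicle rats. NTA replicate 3 was the highest of the 6 arrays, and the other 2 NTA arrays were the lowest. The difference was −0.20 ± 0.23 (SE, adjusted p = 0.867 in limma), with −0.13 and −0.27 on its other probes.

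Sult1c2 had the lowest difference of the 20 members. It had 1.78, 1.46 and 1.80 in NTA rats, against 2.59, 1.69 and 2.70 in vehicle rats. Vehicle replicates 1 and 3 were above all NTA arrays, while vehicle replicate 2 lay among them. The difference was −0.65 ± 0.28 (SE, n = 3 each, 95% interval −1.32 to 0.03), with a 1.57-fold higher signal in vehicle rats, and it did not pass the test (adjusted p = 0.676 in limma). Its other 2 probes gave −1.03 and −1.17. Sult1c2a had 4.20, 3.31 and 4.42 in NTA rats, against 4.40, 3.90 and 4.45 in vehicle rats, with replicate 2 the lowest array of each group. Its difference was −0.27 ± 0.31 (SE, adjusted p = 0.868 in limma) and −0.04 on a second probe.

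Sult1c3, listed also under names for an N-hydroxyarylamine sulfotransferase, had 7.71, 7.53 and 7.65 in NTA rats, against 7.46, 7.25 and 7.94 in vehicle rats. All NTA arrays lay inside the vehicle range, with a difference of 0.08 ± 0.19 (SE) and 0.11 on a second probe. Sult1e1, the estrogen sulfotransferase, had 4.54, 4.59 and 4.38 in NTA rats, against 3.86, 3.59 and 4.56 in vehicle rats. Vehicle replicates 1 and 2 were below all NTA arrays, and vehicle replicate 3 lay among them. The difference was 0.50 ± 0.25 (SE, n = 3 each, with a 95% interval that included 0), a 1.42-fold higher signal that did not pass the test (adjusted p = 0.698 in limma). It was 0.29 without vehicle replicate 2 and 0.78 without vehicle replicate 3. Sult1e1 and Sult1b1 precede the Ugt2 genes among the Ugt and Sult entries on chromosome 14. Neither had NTA replicate 1 and vehicle replicate 3 as its 2 lowest arrays. The same held for Ugt2b1, Ugt2b10, Ugt2b35 and Ugt2b37 among the Ugt2 genes. How many of all features had this pair lowest was not counted.

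Sult2a enzymes sulfate hydroxysteroids and bile acids, and in rat liver they are known to be higher in females than in males. Of 4 Sult2 genes with a probe, 3 were measured, none passed the test and all 3 differences were below 0, with a median of −0.23. The start regions are shown because Sult2a1 and Sult2a6 have nearly the same window but differed in spread between arrays. Capitals again mark the HNF1 half-site.

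Sult2a1: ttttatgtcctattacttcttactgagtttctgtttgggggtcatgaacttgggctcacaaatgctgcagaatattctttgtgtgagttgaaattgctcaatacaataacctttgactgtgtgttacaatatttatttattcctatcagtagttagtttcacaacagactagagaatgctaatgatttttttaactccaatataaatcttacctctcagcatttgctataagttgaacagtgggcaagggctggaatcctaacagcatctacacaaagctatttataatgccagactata
Sult2a2: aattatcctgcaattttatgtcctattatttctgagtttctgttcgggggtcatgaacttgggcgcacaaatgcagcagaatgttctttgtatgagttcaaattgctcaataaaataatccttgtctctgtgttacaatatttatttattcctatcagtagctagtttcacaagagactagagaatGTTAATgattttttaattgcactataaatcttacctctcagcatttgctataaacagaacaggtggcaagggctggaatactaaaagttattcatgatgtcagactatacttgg
Sult2a6: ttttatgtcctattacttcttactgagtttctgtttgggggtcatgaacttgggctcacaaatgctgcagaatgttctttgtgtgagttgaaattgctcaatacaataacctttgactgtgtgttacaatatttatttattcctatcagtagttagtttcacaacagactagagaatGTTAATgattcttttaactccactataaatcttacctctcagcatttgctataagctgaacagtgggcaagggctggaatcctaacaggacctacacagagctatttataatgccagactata

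The windows lie at chr1:84638898-84639197 for Sult2a1, chr1:85104483-85104782 for Sult2a2 and chr1:84097759-84098058 for Sult2a6, all on the - strand of GRCr8. The windows of Sult2a6 and Sult2a1 agree at 292 of 300 positions (97.3%), and those of Sult2a6 and Sult2a2 share 80.8% of aligned positions. With positions counted from 1 at the 5' end and the base of Sult2a6 first, the 8 differences from Sult2a1 are G74A, T179C, C188T, C200A, C233T, G266C, C268T and G276A. T179C falls within the half-site of Sult2a6 at −73, and the Sult2a1 window holds no match. Sult2a2 has its half-site at −64.

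Sult2a1 had 7.29, 7.80 and 7.56 in NTA rats, against 8.01, 8.26 and 7.61 in vehicle rats. Vehicle replicates 1 and 2 were above all NTA arrays, and vehicle replicate 3 lay within the NTA range. The difference was −0.41 ± 0.21 (SE, n = 3 each, 95% interval −0.91 to 0.09, adjusted p = 0.709 in limma). Sult2a6 had 3.41, 2.00 and 2.40 in NTA rats, against 0.84, 4.57 and 2.56 in vehicle rats. The highest and the lowest array were both vehicle arrays, 13.3-fold apart, and all NTA arrays lay between them. Its difference was −0.05 ± 0.91 (SE, 95% interval −2.23 to 2.13, adjusted p = 0.993 in limma). Sult2a2 was well above background on 3 NTA and 2 vehicle arrays, with −3.92, −4.98 and −5.17 in NTA rats, against −6.19, −3.02 and −4.17 in vehicle rats. As for Sult2a6, vehicle replicate 2 was highest, NTA replicate 1 next and vehicle replicate 1 lowest. For Sult2a2, vehicle replicate 1 was the array not above background, so its value carries little information, also for the spread of this gene. The difference of Sult2a2 was −0.23 ± 0.79 (SE, adjusted p = 0.963 in limma). The within-group SD of both genes lay above that of 99.3% of all features, against 74.3% for Sult2a1. Probes for such near copies may take up each other's RNA, which was not tested.

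The remaining 7 genes were not measured. Sult1d1, Sult4a1, Sult6b1, Ugt2a1 and Ugt8 were well above background on no array. Among them, Ugt2a1 is known from olfactory tissue, Sult4a1 from brain and Ugt8 from myelin-forming cells, where it makes galactosylceramide. Sult2b1, which sulfates cholesterol, was above background on 1 NTA and 1 vehicle array. Ugt2b7 was above background on 2 NTA and 2 vehicle arrays, with −5.40, −4.67 and −4.99 in NTA rats, against −4.89, −3.95 and −5.73 in vehicle rats. NTA replicate 1 and vehicle replicate 3 were its 2 lowest arrays. These were the arrays not above background, so the order of values this dim carries little information.

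The spread between animals was unequal among the members. The within-group SD of 6 of the 20 (Ugt2b, Sult2a6, Ugt2a3, Sult2a2, Ugt1a9 and Sult1c2a) exceeded the 90th percentile of all features. Vehicle replicate 2 was the highest array for 9 members and the lowest for 5, and NTA replicate 1 was the lowest for another 5. The family medians changed with the animals left out: for Ugt2 the median difference ran from −0.23 to 0.43, for Sult2 from −0.96 to 0.49 and for Ugt1a from 0.11 to 0.30.

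Genes that supply the donor sugar and sulfate did not pass the test. Of 12 measured genes for UDP-glucuronate supply and sugar nucleotide transport, 0 were called in limma, 1 had an unadjusted p under 0.05 (7.58% of all features) and the median difference was 0.00. Ugdh, which oxidises UDP-glucose to UDP-glucuronate, had 3.63, 3.40 and 3.53 in NTA rats, against 3.45, 3.14 and 3.30 in vehicle rats, a difference of 0.22 ± 0.13 (SE). Ugp2, which makes UDP-glucose, differed by 0.22 ± 0.15 (SE). Pgm2, a phosphoglucomutase, had 1.19, 1.17 and 1.48 in NTA rats, against 1.06, 0.91 and 0.75 in vehicle rats. The Pgm2 groups did not overlap, and the difference was 0.38 ± 0.14 (SE, adjusted p = 0.616 in limma). For PAPS supply and sulfate transport, 0 of 8 measured genes were called, 0 had an unadjusted p under 0.05 in limma and the median was −0.03. Papss2, a PAPS synthase, differed by −0.21 ± 0.22 (SE), Bpnt1, which clears the spent cofactor, by 0.13 ± 0.09 (SE), and the anion exchanger Slc26a6 by 0.11 ± 0.10 (SE). The list of enzymes that remove the added groups also held the sulfatase modifying factors Sumf1 and Sumf2, which are not such enzymes. Of its 7 measured genes, 0 were called, 0 had an unadjusted p under 0.05 in limma and the median was 0.01. Gusb, the beta-glucuronidase, differed by 0.01 ± 0.10 (SE), and the arylsulfatases Arsa and Arsg by −0.16 ± 0.10 and 0.15 ± 0.12 (SE).

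Transporters that carry conjugates across the cell membrane had a median difference of 0.22, with 10 of 15 measured genes above 0 and 0 called in limma. Of the 15, 5 had an unadjusted p under 0.05 in limma, all with higher means in NTA rats (3.66% of all features in that direction). In 6 the groups did not overlap, all with higher values in NTA rats (5.57% of all features in that direction). Abcc3, an exporter of glucuronides into blood, had −1.22, −1.34 and −2.66 in NTA rats, against −2.95, −3.09 and −3.25 in vehicle rats. All NTA arrays were above all vehicle arrays, with NTA replicate 3 nearest to them. The difference was 1.36 ± 0.38 (SE, n = 3 each, 95% interval 0.45 to 2.26, adjusted p = 0.525 in limma), and it was 1.82 without NTA replicate 3 and 0.86 with normexp background correction. Abcc5 and Abcc1 differed by 0.41 ± 0.11 (SE, adjusted p = 0.515 in limma) and 0.41 ± 0.11 (SE, adjusted p = 0.521 in limma). Abcc2, which exports conjugates into bile, had 5.86, 5.92 and 6.06 in NTA rats, against 5.94, 6.19 and 5.78 in vehicle rats, a difference of −0.03 ± 0.14 (SE).

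The list of transcription factors that bind Ugt or Sult genes also held Keap1, which is not such a factor. Of its 25 measured genes, 0 were called in limma and the median was 0.04. An unadjusted p under 0.05 in limma was reached by 1 with a higher and 1 with a lower mean in NTA rats (3.66% and 3.92% of all features). Foxa3, a hepatocyte forkhead factor, had 0.68, 0.25 and 0.64 in NTA rats, against 1.53, 1.02 and 1.08 in vehicle rats. Its groups did not overlap, and the difference was −0.69 ± 0.19 (SE, adjusted p = 0.521 in limma). Nr1i3, the constitutive androstane receptor CAR, had 3.16, 3.06 and 3.56 in NTA rats, against 2.07, 2.32 and 3.10 in vehicle rats, a difference of 0.76 ± 0.28 (SE, adjusted p = 0.621 in limma). Vehicle replicate 3 fell among the NTA arrays on this probe, and the other Nr1i3 probes gave 0.90, 0.92 and 1.02. The list for activation of AHR, CAR and PXR, the pregnane X receptor, held 15 marker genes. Of these, 13 had a probe and 10 were measured. Cyp1a1, Cyp1b1, Tiparp, Ahrr and Cyp2c6 were not measured, so the list says little about AHR. Of the 10 measured genes, 0 were called, 0 had an unadjusted p under 0.05 in limma and the median was 0.32. That median was 0.05 without NTA replicate 3 and 0.17 without NTA replicate 1, and 7 of the 10 differences were above 0. Their 2 lowest p-values belonged to the cytochromes Cyp3a18, at 0.37 ± 0.18 (SE), and Cyp3a2, at 0.30 ± 0.17 (SE). Cyp2b2 entered by its brightest probe, at 0.35, and its other probes gave 0.05, 0.70, 0.75 and 0.97. The size of its difference therefore depends on the probe. Of 13 measured sex-dependent liver genes, 0 were called and 0 had an unadjusted p under 0.05 in limma, with a median of 0.08. That list mixes genes known to be higher in males with genes known to be higher in females. Its median therefore cannot show a shift toward either pattern. Cyp17a1 and the major urinary protein gene Mup4 differed by 0.25 ± 0.11 and −0.17 ± 0.11 (SE).

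On the brightest probes, the other conjugation enzymes held the 1 called gene of all 8 lists. Gstp1, the pi-class glutathione S-transferase, had 5.93, 6.08 and 5.79 in NTA rats, against 3.00, 3.21 and 3.49 in vehicle rats. The groups were far apart, and Gstp1 rose by 2.70 ± 0.16 (SE, n = 3 each, adjusted p = 0.00638 in limma), with 2.68 and 2.77 on its other probes. Without NTA replicate 1 the difference was 2.71 with an adjusted p of 0.0760 in limma, and without NTA replicate 2 it was 2.63 with an adjusted p of 0.0560 in limma. Of the 24 measured genes of that list, 3 had an unadjusted p under 0.05 in limma, all with higher means in NTA rats (3.66% of all features in that direction). In 4 the groups did not overlap, all with higher values in NTA rats (5.57% of all features in that direction). Of the differences, 19 were above 0 (43.8% of all features), and the median was 0.16. Gsta3 entered by its brightest probe, at 0.08, but its other probes gave 0.24 and 2.67. The probe at 2.67, A_64_P035291, was above background on all 6 arrays. The result for Gsta3 therefore depends on the probe, and what each probe pairs with was not tested.

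**Figure D4:**
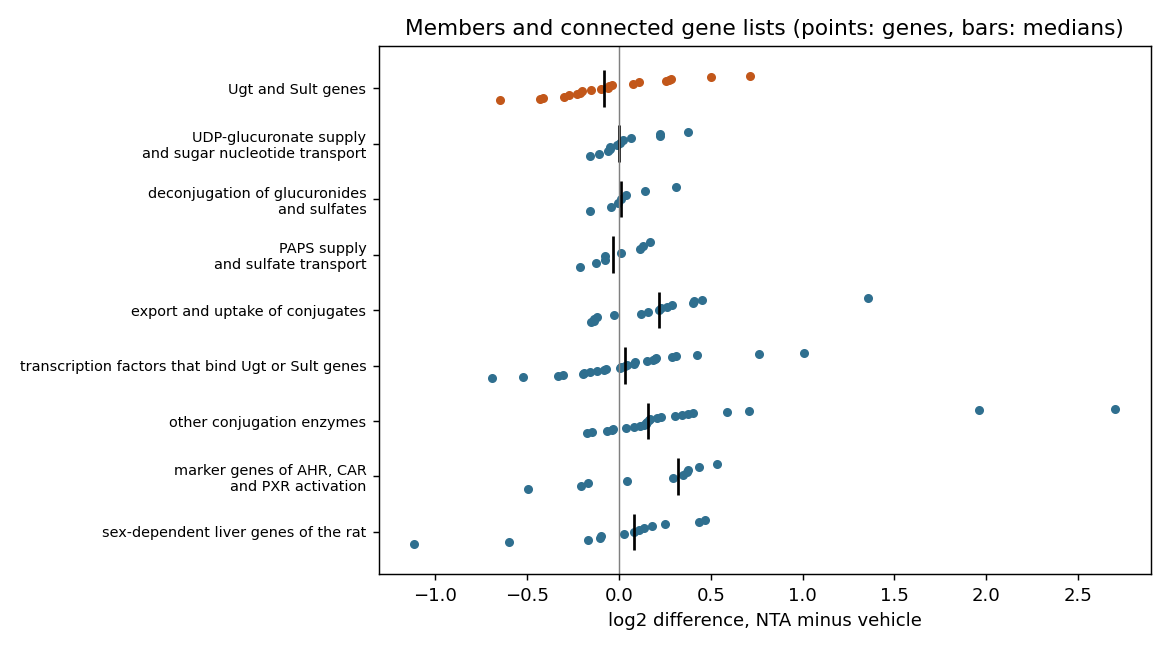
Difference between NTA and vehicle rats (log2, horizontal axis) of the 20 measured Ugt and Sult genes (top, orange) and of the measured genes of 8 connected lists (blue), with 1 point per gene and a bar at each median. The Ugt and Sult genes lie between −0.65 and 0.71, and the far right point is Gstp1 at 2.70.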

How the data were processed

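Total RNA of 6 rat livers (3 NTA, 3 vehicle) was measured on 1-colour Agilent arrays of design 035170. Per the file headers, the deposited scanner files were written by Feature Extraction 10.7.1.1 (10.7 per the submitters' processing notes) on build rn4, and hold background-subtracted intensity per spot. The deposited series table holds the authors' ratio of each intensity to its array's 75th percentile, which every probe matched within 0.0001 plus 0.2% of the value. Its column medians were 0.096, 0.1 and 0.0969 in NTA rats and 0.098, 0.0977 and 0.0987 in vehicle rats.

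Here, control spots and flagged outliers were left out, and log2 of the processed signal minus the array's 75th percentile was taken. A probe entered the test where the software flagged it as above background in every NTA array or every vehicle array. The brightest probe stood for a gene, and unnamed probes were kept one by one. RefSeq accessions without versions were matched to the GRCr8 gene table, which named 27460 of 61657 probes with 1 symbol and left 34197 without one. The 30350 features (11251 named genes and 19099 unnamed probes) were tested with limma 3.58.1 (R 4.3.3), lmFit and eBayes, two-sided, without covariates, with p-values adjusted over all of them by the Benjamini-Hochberg method and called under 0.05. Intervals use 6.55 degrees of freedom. The fit was tested on simulated data. The number of arrays limits the precision.

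All members and lists were chosen with earlier results of these data known, so no list is independent support. The text names all 27 members and, of each list, the called genes or otherwise the 2 with the smallest p. It also names Gusb, Ugdh, Ugp2, Papss2, Abcc2, Abcc3, Keap1, Sumf1, Sumf2 and the activation markers that were not measured. Cyp2b2 and Gsta3 are named because their probes disagreed. Lists are described by counts and medians, with no set test. Alternatives were normexp background correction, quantile normalization, no filter on dim probes, the mean of a gene's probes, limma's trend and robust options, slide as a random block, scan day as a block, a replicate block, the deposited table and leaving out each array. The files hold no mean signal column, so normexp (offset 50) used the median signal and median background. Promoter windows and motifs were read from the RefSeq table (GRCr8). No gene coordinates of the array's own build were used.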

Additional observations from a re-analysis of the deposited data

How the results depend on the processing

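No Ugt or Sult gene was called under any of the 15 alternatives. At an unadjusted p under 0.05 in limma there were 0 to 4 of them. The count was 4 when vehicle replicate 3 was left out or scan day was a block, and 3 with normexp. All features at that p numbered 2401 without vehicle replicate 3, 2401 with scan day as a block and 3241 with normexp. Over all features, 9 were called, 0 with the replicate block (2319 at an unadjusted p under 0.05 in limma), and 1 to 8 when each array was left out. No label pairs the samples by replicate number. Deviations of same-numbered arrays correlated at 0.17, −0.01 and −0.07, and those of differently numbered arrays at −0.15 to 0.15. So few arrays cannot decide whether the samples were paired. The Sult1 median ran from −0.46 (without NTA replicate 3) to −0.012 (without NTA replicate 2), and the median over all members from −0.18 to 0.08. The sign of the difference held under all alternatives for 10 of 20 members. Under the 9 alternatives other than leaving out an array it held for 19, the exception being Ugt2a3 at 0.11 with normexp. Those 9 are not separate checks of the sign. The median over all members stayed at −0.08 with trend and robust options, the replicate block, no filter on dim probes and the deposited table. Scan day as a block gave the same median as leaving out vehicle replicate 3, −0.18. With scan day as a block, which leaves vehicle replicate 3 without weight, Ugt2b was −1.79 and Ugt2a3 −0.85. Gstp1 was no longer called with the replicate block, at the same difference of 2.70 (adjusted p = 0.166 in limma). The 3 arrays a group and probes near background limit what could be detected.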

Other observations

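The low signals of Ugt2b on NTA replicate 1 and vehicle replicate 3 were looked for in other probes, after the Ugt2b values had been seen. Of 38158 probes past the filter, 184 had a gap of more than 2 log2 units between neighbouring arrays. In 21 of these, 2 arrays lay below the gap, and in 5 those 2 were NTA replicate 1 and vehicle replicate 3. The 5 were A_44_P426047 and A_64_P117003 of Ugt2b, A_44_P531870 of Ephx2 (soluble epoxide hydrolase) and the unnamed probes A_64_P116996 and A_64_P045325. The Ephx2 probe had −0.97, 1.86 and 1.92 in NTA rats, against 3.38, 2.50 and −0.63 in vehicle rats. Probe A_64_P116996 had −4.44, 2.21 and 3.56 in NTA rats, against 2.94, 3.85 and −2.73 in vehicle rats, with a gap of 4.94. Probe A_64_P045325 had 0.34, 3.01 and 4.15 in NTA rats, against 3.43, 4.38 and −0.36 in vehicle rats. Whether the unnamed probes take up Ugt2b RNA was not tested. These are values of 6 animals, and their cause was not tested.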
